A study of Mus musculus with 2 samples.

Results

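Ly6c-low monocytes are the patrolling, or non-classical, monocytes of the mouse. Among the CD45+ cells of mouse hearts they were chosen by their own transcripts: at least 200 reads per 1000000 reads of the cell (CPM) for *Csf1r*, the receptor of the growth factor that sustains monocytes and macrophages, at least 50 CPM for 2 or more of *Ace*, *Treml4*, *Cd300e* and *Adgre4*, under 500 CPM for the macrophage gene *C1qa*, under 50 CPM for the proliferation gene *Mki67*, and under 200 CPM for the B cell gene *Cd79a*. This rule held for 238 of 5263 kept cells, which is 4.52% (95% exact Clopper-Pearson interval 3.98 to 5.12%). The study asked how T cells shape the heart's response to pressure overload, and sequenced CD45+ cells of male mice of 8 weeks, given as C57BL/6N in the labels of the pooled library, taken 1 week after a sham operation or transverse aortic constriction (TAC), a suture around the aorta that loads the left ventricle.

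The 5 groups were wild-type (WT) mice after sham surgery with 28 such monocytes, CD3e-/- mice after sham surgery with 31, WT mice after TAC with 76, CD3e-/- mice after TAC with 68, and WT mice after TAC that received an anti-CD8 antibody with 35. CD3e-/- mice carry a germline knockout and have no T cells from birth, so it is not a removal of T cells at the time of surgery. In the cell preparation of the paper, mice were first perfused with PBS through the heart to remove blood cells. All groups shared the digestion of the heart with collagenase and DNase, a Percoll gradient and the magnetic selection of CD45+ cells. The 5 groups were told apart by antibody hashtags within 1 pooled library. Each group is therefore 1 sample without replicates, the number of mice behind each hashtag is not given in the sources used here, and no test between groups was possible. Intervals printed below are over cells and cover counting error only. The deposited counts are labelled as error-corrected, so a gene without a read is one without a read in these counts.

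The hashtag labels were checked by T cells, taken as cells with at least 50 CPM of 2 or more of *Cd3e*, *Cd3g*, *Cd3d*, *Trac* and *Trbc2*. They made up 5.2% of the kept WT sham cells, 3.03% of the WT TAC cells and 4.14% of the cells labelled CD8-depleted, against 0.719% in CD3e-/- sham and 0.435% in CD3e-/- TAC. T cells with *Cd8a* or *Cd8b1* were 0.8% of the kept WT sham cells (0.346 to 1.57%), 0.619% of those of WT TAC (0.297 to 1.14%) and 0.671% of the cells labelled CD8-depleted (0.247 to 1.46%). In CD3e-/- sham and CD3e-/- TAC none was found, which allows a share of up to 0.359% and 0.326% by a limit of 3 cells, and of up to 0.441% and 0.401% by the upper bound of the exact interval. The depletion was thus not visible in the transcripts, but these shares are 10 cells of WT TAC and 6 of those labelled CD8-depleted. Their intervals are too wide to tell a depletion from none. The paper counted CD8+ T cells of the heart by flow cytometry, which this check does not replace. The cells are named by their label throughout.

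Patrolling monocytes arise from Ly6c-high classical monocytes under the transcription factor Nr4a1, need C/EBPβ and Bcl2 for their survival, and crawl along the inside of blood vessels by the integrin LFA-1 and the chemokine receptor Cx3cr1. They are known as cells that clear particles and damaged endothelial cells from small vessels. In the heart, which holds few of them, they can lie in the vessels as well as in the tissue. The perfused and digested hearts do not tell these places apart.

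Of the genes outside the rule, *Eno3* and *Spn* mark these cells as well. *Eno3*, the muscle enolase, was at 211.5 CPM over the summed reads of all members, against 10.3 CPM in the 202 cells that met all else but reached only 1 of the 4 genes, 3.22 CPM in the 326 comparison monocytes with high *Ly6c2* and *Ccr2*, 7.93 CPM in 2216 macrophages and 7.72 CPM in 452 B cells. *Spn*, which codes for the sialomucin CD43, was at 294 CPM in the members, 39.9 CPM in the cells with 1 gene, 32.5 CPM in the monocytes and 55.97 CPM in the macrophages. *Nr4a1* was at 1188 CPM in the members and at 420 CPM in the cells with 1 gene, 338 CPM in the monocytes and 113 CPM in the macrophages, while the B cells had 453 CPM. *Itgal*, the alpha chain of LFA-1, was at 632 CPM against 139 CPM in the monocytes and 30.8 CPM in the macrophages. *Cx3cr1* was at 611 CPM in the members and 392.4 CPM in the monocytes, but at 938 CPM in the macrophages, so it did not set the members apart from all cells with *Csf1r*.

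**Figure D1:**
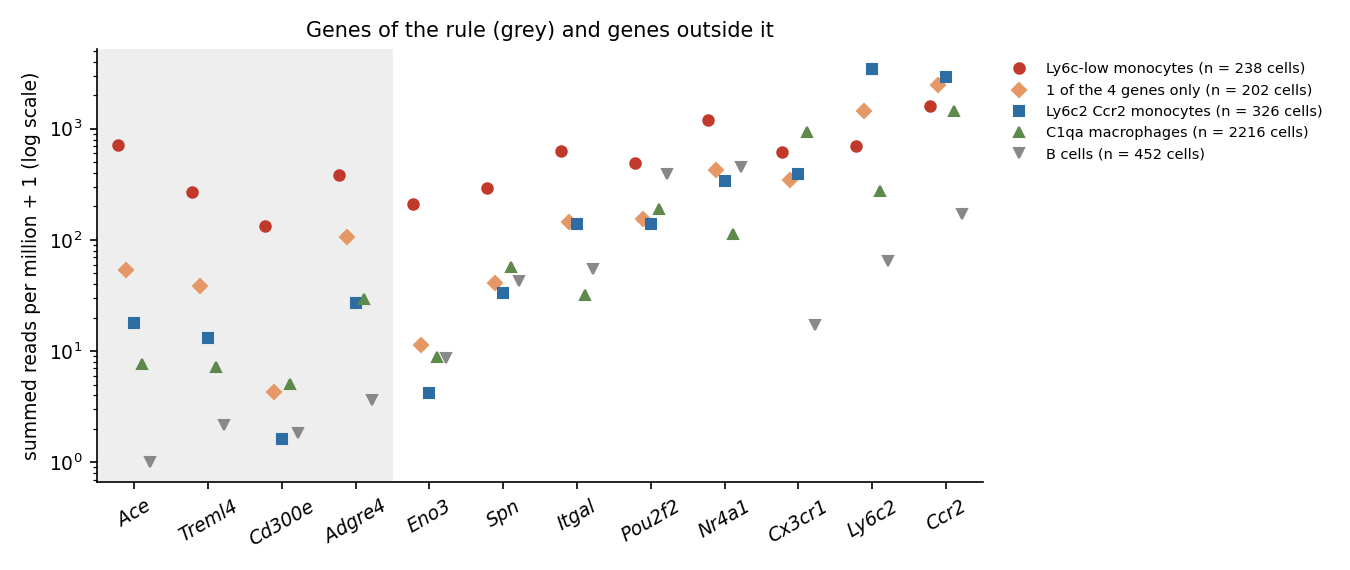
Summed CPM of 12 genes (log scale, 1 added) in 5 kinds of cells, 1 point per kind; the grey field holds the genes by which the members were chosen. Outside it, *Eno3* (211.5 CPM) and *Spn* (294 CPM) of the Ly6c-low monocytes lie above all other kinds of cells, and *Ly6c2* (698 CPM) lies between the monocytes and the macrophages.

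The genes of the rule were, by its construction, at 711 CPM (*Ace*, angiotensin-converting enzyme), 271 CPM (*Treml4*), 134 CPM (*Cd300e*) and 381 CPM (*Adgre4*) in the members. *Adgre4* reached 50 CPM in 215 of the 238 cells, *Ace* in 206, *Treml4* in 189 and *Cd300e* in 74. Of the members, 90 (37.8%) reached 2 of the 4 genes, 88 (37.0%) reached 3 and 60 (25.2%) all 4. The second highest of the 4 genes stood at 50.2, 53.4 and 53.8 CPM in the 3 members just inside the limit and at 45.1, 42.7 and 40.1 CPM in the 3 cells just outside. *C1qa* alone kept out 34 cells, *Cd79a* 6, *Mki67* 4 and *Csf1r* 3.

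Genes outside the rule followed the number of its genes that a cell reached. From the cells with 2 to those with 3 and 4 genes, *Eno3* was at 62.1, 228 and 402 CPM, *Spn* at 151, 290 and 505 CPM, *Nr4a1* at 778, 1206 and 1749 CPM, and *Ear2*, an eosinophil-type ribonuclease, at 272, 667 and 1249 CPM. *S1pr5*, a receptor for sphingosine 1-phosphate that guides leukocytes out of the bone marrow, was at 37.7, 67.6 and 233 CPM. The opposite order was found for *Ly6c2*, at 942, 645 and 426 CPM, and for *Ccr2*, the receptor by which classical monocytes leave the marrow, at 2034, 1615 and 906 CPM. The median depth of the 3 sets was alike, at 112655, 113900 and 104576 reads per cell. *Eno3* reached 50 CPM in 81.1% of the members with *Cd300e* and in 34.8% of those without it, and *Spn* in 83.8% and 51.8%.

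Against the comparison monocytes of the same hashtag group, genes were compared by the log2 ratio of summed CPM with 10 CPM added to both. A ratio of at least 1 in all 5 groups was found for 32 of 3856 genes on the higher side (0.83%) and 10 on the lower side (0.259%), among genes with 50 CPM in the members or the monocytes. Of the genes not used by either rule, *Ear2* had the highest of the smallest ratios, with 671 CPM in the members against 26.6 CPM and log2 ratios between 3.86 and 4.54. *Slc12a2*, a sodium, potassium and chloride transporter, followed with 124 CPM against 0.602 CPM. *Pglyrp1*, a secreted protein that binds bacterial peptidoglycan, was at 106 CPM against 8.57 CPM. The adhesion molecules *Ceacam1* and *Ceacam2* were at 424 and 207 CPM against 83.5 and 38.4 CPM. *S1pr5* was at 99.4 CPM against 2.82 CPM, and the survival factor *Bcl2* at 68.2 CPM against 12.8 CPM. The unconventional myosin *Myo1g*, the actin regulator *Cyfip2*, the serpin *Serpinb10*, the iron regulator *Hfe* and the G protein subunit *Gngt2* completed this set, with a smallest log2 ratio between 1.33 and 1.48.

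On the lower side, 6 named genes passed a log2 ratio of -1 in each group. *Fgl2*, a fibrinogen-like protein, was at 187 CPM against 643 CPM, *F13a1*, the A subunit of clotting factor XIII, at 268 CPM against 766 CPM, and *Fcgr1*, the high-affinity receptor for IgG, at 244 CPM against 691 CPM. The other 3 are genes induced by interferon, *Isg15* with 209 CPM against 764 CPM, *Ifit2* with 152 CPM against 413 CPM, and *Ifi213* with 125 CPM against 335 CPM. *Slfn1*, *Gbp2*, *Ccl9* and *Lgals9* were lower in all 5 groups, but their smallest difference lay between -0.99 and -0.94.

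Of the gene lists, 12 of 24 non-classical monocyte genes outside the rule (50 CPM or more) were higher than in the monocytes by a log2 ratio of at least 1 in all 5 groups and none lower, with a median of 1.67 beside 0.01 over all genes. Of 13 transcription and survival factors, 2 were higher, *Nr4a1* and *Bcl2*, with a median of 0.89. *Klf2* and *Klf4*, regulators of monocyte differentiation, were at 652 and 1162 CPM against 171 and 425 CPM, and *Pou2f2* at 491 CPM against 138 CPM. These 3 did not pass in all 5 groups, with smallest log2 ratios of 0.71, 0.98 and 0.46. The classical monocyte genes had a median of -1.16 over 7 genes, the type I interferon response -1.56 over 13 genes with 2 lower and none higher, and the interferon-gamma response -0.86 over 11 genes. Of 13 adhesion and migration genes 3 were higher (median 0.67), *Itgal*, *Spn* and *S1pr5*. Of 12 immediate early and stress genes 1 was higher, *Nr4a1* (median 0.34). These genes and *Bcl2* also belong to the non-classical list, so they are not separate results. Fc and scavenger receptors had a median of 0.06 over 11 genes, the inflammatory cytokines and feedback genes -0.20 over 10, the repair factors -0.45 over 5, and glycolysis -0.42 over 10.

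Promoters of the genes that set the members apart were searched for 4 binding motifs of factors of monocyte differentiation and for the interferon-stimulated response element, on both strands in the 250 bases before the start (RefSeq, GRCm38.p6). Of the 14 genes, the markers and the 10 leading genes above with *Eno3* and *Spn* in both sets, 12 had a promoter in the table, and *Itgal* and *Slc12a2* had none. The letters TTGCNNAA of C/EBP stood in the promoters of *Adgre4* and *Ear2*, and in 9.56% of all 32851 promoters. In *Adgre4* they lay 46 to 39 bases before the start on the other strand, so the capitals below show their reverse complement. In *Ear2* they lay 90 to 83 bases before it. CCACACCC, bound by Krüppel-like factors, stood in that of *Pglyrp1*, 53 to 46 bases before the start, and in 3.2% of all. AAAGGTCA of Nr4a1 (1.34% of all) and GAGGAAGT of PU.1 (2.44% of all) stood in none of the 12 genes' promoters. The 3 promoters with a motif are shown 5′ to 3′ on the strand of the gene, with the motif in capitals. They lie at chr17:55749734-55749983 (*Adgre4*, plus strand), chr14:44102404-44102653 (*Ear2*, plus strand) and chr7:18884440-18884689 (*Pglyrp1*, plus strand).
Adgre4: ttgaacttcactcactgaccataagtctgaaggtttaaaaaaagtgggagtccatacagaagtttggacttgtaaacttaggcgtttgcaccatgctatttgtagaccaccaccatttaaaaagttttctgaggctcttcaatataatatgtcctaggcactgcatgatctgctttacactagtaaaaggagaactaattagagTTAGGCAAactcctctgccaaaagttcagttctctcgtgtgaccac
Ear2: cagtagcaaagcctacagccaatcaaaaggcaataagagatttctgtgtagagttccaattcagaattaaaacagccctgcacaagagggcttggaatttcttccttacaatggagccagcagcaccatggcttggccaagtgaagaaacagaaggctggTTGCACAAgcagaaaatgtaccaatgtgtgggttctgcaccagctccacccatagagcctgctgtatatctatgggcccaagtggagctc
Pglyrp1: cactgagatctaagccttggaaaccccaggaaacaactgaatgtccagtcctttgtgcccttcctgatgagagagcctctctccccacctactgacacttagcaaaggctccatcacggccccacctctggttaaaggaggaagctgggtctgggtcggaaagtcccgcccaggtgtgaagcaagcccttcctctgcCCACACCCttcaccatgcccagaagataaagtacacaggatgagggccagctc

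The name Ly6c-low held for part of the members only. *Ly6c2*, which codes for the Ly6C antigen and was not used by the rule, was at 698 CPM over all members against 3451 CPM in the comparison monocytes, whose rule used it. Under 100 CPM were 124 members (52.1%), of which 57 had no read, 74 (31.1%) had 100 to 1000 CPM, and 40 (16.8%) had 1000 CPM or more. The comparison monocytes were themselves taken at 500 CPM or more. The ranges are cuts by level and not cell types. Within 1.5 times of the lower limit lay 16 cells, and of the upper limit 31. Whether the levels form separate groups was not tested.

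**Figure D2:**
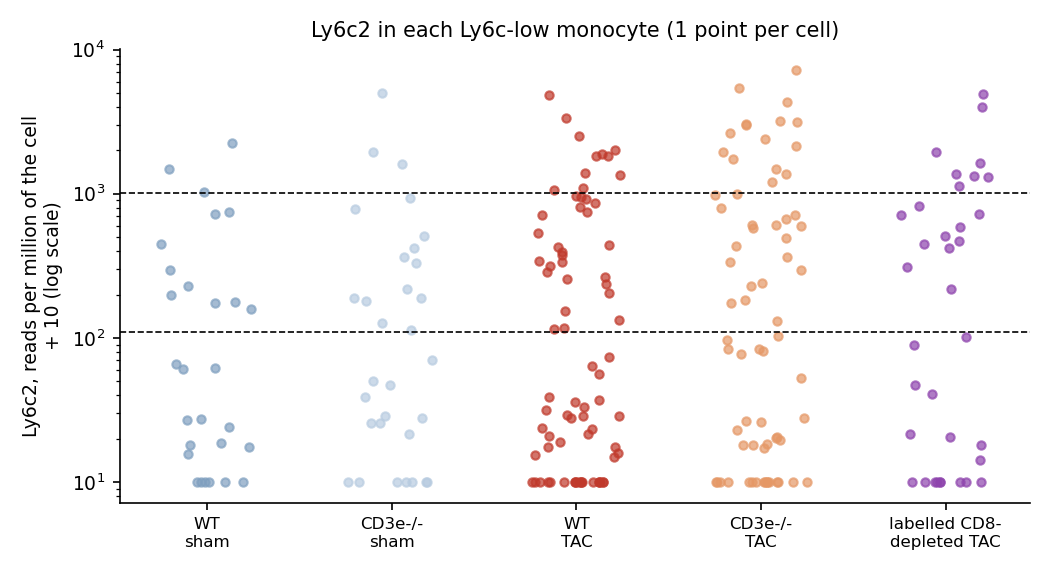
*Ly6c2* CPM (log scale, 10 added) in each of the 238 Ly6c-low monocytes by hashtag group, 1 point per cell, with broken lines at 100 and 1000 CPM. The cells spread over the whole range in all 5 groups, with 3 to 15 cells of a group above the upper line.

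Members at 1000 CPM or more of *Ly6c2* were 3 of 28 in WT sham (10.7%), 3 of 31 in CD3e-/- sham (9.68%), 11 of 76 in WT TAC (14.5%), 15 of 68 in CD3e-/- TAC (22.1%, 12.9 to 33.8%) and 8 of 35 in the cells labelled CD8-depleted (22.9%, 10.4 to 40.1%). The summed level of *Ly6c2* was 297, 558, 542, 1017 and 702 CPM in the same order. The intervals of the 5 shares overlapped.

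Between members of the lowest and the highest range of *Ly6c2*, 335 of 3981 genes with 50 CPM or more in either were higher in the lowest range in all 5 groups (8.41%) and 164 lower (4.12%). Of 24 non-classical monocyte genes outside the rule 16 were higher and none lower, of 8 classical monocyte genes other than *Ly6c2* none was higher and 4 were lower, and of 12 type I interferon genes none was higher and 4 were lower. The high range held as few as 3 cells in a group. From the lowest to the highest range, *Cd36*, a scavenger receptor for lipids, was at 301, 84.4 and 63.6 CPM, *Pparg*, a lipid-sensing nuclear receptor, at 84.2, 33.1 and 19.3 CPM, and *Eno3* at 336, 117 and 98.1 CPM. *Spn* was at 397, 235 and 167 CPM, *Ear2* at 946, 484 and 378 CPM, and *Nr4a1* at 1485, 1016 and 819 CPM. Each of these 6 genes was higher in the lowest than in the highest range in all 5 groups. *Cx3cr1* was at 610, 635 and 571 CPM and had no such order. The interferon-induced genes *Irf7* and *Rsad2* were at 144, 241 and 910 CPM and at 54.6, 88.1 and 728 CPM, each lower in the lowest than in the highest range in all 5 groups. *Fabp4*, a lipid carrier, was at 96.9 CPM in the lowest and 8.31 CPM in the highest range. These genes were named after their values were seen.

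The share of Ly6c-low monocytes among the kept CD45+ cells was 2.8% in WT sham (28 of 1000 cells, 1.87 to 4.02%), 3.71% in CD3e-/- sham (31 of 835, 2.54 to 5.23%), 4.71% in WT TAC (76 of 1615, 3.73 to 5.86%), 7.40% in CD3e-/- TAC (68 of 919, 5.79 to 9.29%) and 3.92% in the cells labelled CD8-depleted (35 of 894, 2.74 to 5.40%). The share was 1.68 times as high in WT TAC as in WT sham (95% interval on the log scale 1.10 to 2.57), and 1.99 times as high in CD3e-/- TAC as in CD3e-/- sham (1.32 to 3.02). CD3e-/- TAC had 1.57 times the share of WT TAC (1.15 to 2.16), CD3e-/- sham 1.33 times that of WT sham (0.80 to 2.19), and the cells labelled CD8-depleted 0.83 times that of WT TAC (0.56 to 1.23). The last 2 intervals include 1. CD3e-/- hearts hold almost no T cells, which by itself changes the denominator. T cells were 3.03% of the kept cells in WT TAC and 0.435% in CD3e-/- TAC, and 5.2% and 0.719% in the sham groups.

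Among cells with 200 CPM of *Csf1r* and under 200 CPM of *Cd79a*, the shares were 4.39, 5.97, 6.04, 9.18 and 5.11% in the same order. This denominator used no T or NK cell gene, and lymphocytes left in it were not counted. The ratio of WT TAC to WT sham was then 1.38 (0.902 to 2.101), an interval that includes 1, and those of CD3e-/- TAC to CD3e-/- sham and to WT TAC were 1.54 (1.02 to 2.31) and 1.52 (1.11 to 2.08). The comparison monocytes numbered 0.643 per member in WT sham, 0.645 in CD3e-/- sham, 1.38 in WT TAC, 1.35 in CD3e-/- TAC and 2.6 in the cells labelled CD8-depleted. A share in a pool says nothing of cell numbers per heart, and mice within a hashtag could not be told apart.

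**Figure D3:**
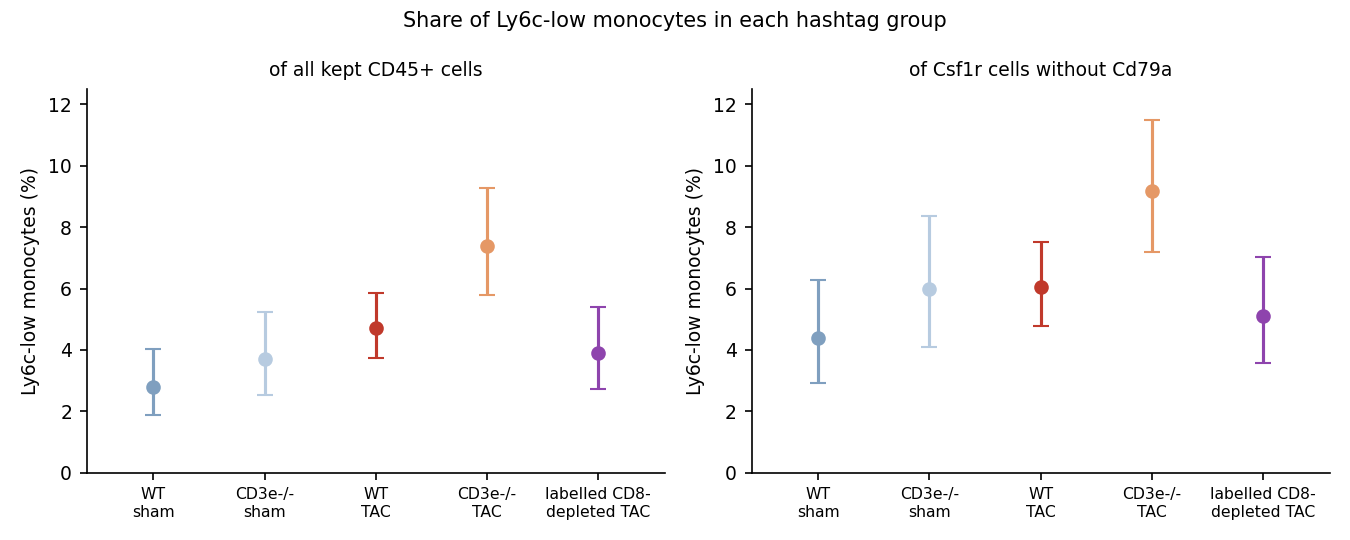
Share of Ly6c-low monocytes in each hashtag group (%), among all kept CD45+ cells (left) and among cells with *Csf1r* and without *Cd79a* (right); points are shares and bars 95% exact intervals of counting error. CD3e-/- TAC lies highest in both panels (7.40 and 9.18%), and WT sham lowest (2.8 and 4.39%).

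The members had 23452 to 481690 reads, with medians of 116208, 85852, 92324, 132570 and 100454 reads and of 3670 to 4803 genes per group, and a median mitochondrial share of 2.54 to 2.96%. No cell barcode was shared between columns, and 0 of 39 columns that the authors called doublets met the rule, for which the upper bound of the exact interval was 9.03%. Of the macrophage genes, *Apoe* was at 4061 CPM, *Adgre1* at 140 CPM and *C1qb* at 122 CPM in the members. The macrophages had means over the groups of 18252, 561 and 3189 CPM. The macrophage list had a median log2 ratio of -0.85 to the comparison monocytes over 7 genes. Of the markers of other cells, those of neutrophils were the highest. Summed over the list, neutrophil markers were at 126 to 269 CPM, of which *Csf3r* made up 106 to 169 CPM, with 19 cells at 50 CPM or more of 2 markers. T cell markers were at 75.8 CPM in WT TAC and at 2.7 to 4.04 CPM in the other groups. NK cell markers were at 0 to 27.2 CPM, B cell markers at 2.54 to 9.8 CPM and dendritic cell markers at 5.09 to 62.6 CPM. Cells at 50 CPM or more of 2 markers numbered 1, 0, 0 and 1 for these 4 lists. Those of platelets, erythroid, endothelial cells, fibroblasts and cardiomyocytes lay at or under 22.1 CPM.

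After TAC, genes of the type I interferon response were higher in the members of both genotypes. Of the 13 genes of the list, 11 had 50 CPM or more in WT sham or WT TAC, and 9 of them were higher in WT TAC by a log2 ratio of at least 1 and none lower, with a median of 1.70 beside 0.01 over all genes. Over all genes, 224 of 4069 were higher by this size (5.51%) and 104 lower (2.56%). Of 10 genes in the comparison of CD3e-/- TAC with CD3e-/- sham, 8 were higher and none lower, with a median of 1.59 beside 0.00, where 206 of 4009 genes were higher (5.14%) and 101 lower (2.52%). Across the alternative settings the lowest and highest medians were 1.10 and 2.18 in WT mice, and 1.02 and 2.09 in CD3e-/- mice.

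*Ifit1*, an inhibitor of viral translation, was at 2.097 CPM in WT sham, 17.0 CPM in CD3e-/- sham, 166 CPM in WT TAC, 115 CPM in CD3e-/- TAC and 81.1 CPM in the cells labelled CD8-depleted. It had a read in 1 of 28, 1 of 31, 10 of 76, 14 of 68 and 5 of 35 cells. *Ifit3*, of the same family, was at 24.0, 18.8, 209, 149 and 97.5 CPM in the same order of groups. Both genes were higher in each TAC group than in either sham group. *Isg15*, a ubiquitin-like modifier, was at 50.6, 92.3, 187, 265 and 355 CPM. *Irf7*, the transcription factor that amplifies the response, was at 196, 145, 372, 367 and 437 CPM. These too were higher in each TAC group than in either sham group. The share of all genes with this order, here or for the genes below, was not counted. The order is therefore not read as particular to these genes. *Ifit1* and *Ifit3* were moreover named for their ratios of TAC to sham. *Gbp5*, a GTPase induced by interferon, was at 6.89, 2.29, 62.0, 58.5 and 50.2 CPM.

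Single cells carried much of some of these genes. *Cxcl10*, a chemokine that draws activated T cells, had no read in the 28 cells of WT sham, 46.5 CPM in CD3e-/- sham, 561 CPM in WT TAC, 70.4 CPM in CD3e-/- TAC and 129.9 CPM in the cells labelled CD8-depleted. Against a floor of 3 reads over WT sham (0.899 CPM), WT TAC was 624-fold higher. This is a ratio of summed reads and no lower bound over cells. The *Cxcl10* reads of WT TAC came from 13 of the 76 cells, and 1 cell held 33.8% of them. In CD3e-/- mice the log2 ratio of TAC to sham was 0.51, and -0.04 without the cell with the most reads in each group. *Rsad2*, an antiviral enzyme, was at 41.0, 31.5, 421, 148 and 125 CPM, and 1 cell held 61.2% of the reads in WT TAC. Without these cells its log2 ratio of TAC to sham was 2.42 in WT and 2.09 in CD3e-/- mice, against 3.08 and 1.93 with them. *Cmpk2*, a nucleotide kinase beside *Rsad2*, was at 16.5, 38.9, 163, 72.2 and 18.8 CPM.

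Counted by cell, with each cell thinned to 30000 reads, at least 3 of the 13 genes reached 50 CPM in 4 of 27 members of WT sham (14.8%, 4.19 to 33.7%), 6 of 31 of CD3e-/- sham (19.4%, 7.45 to 37.5%), 26 of 75 of WT TAC (34.7%, 24.0 to 46.5%), 23 of 67 of CD3e-/- TAC (34.3%, 23.2 to 46.9%) and 11 of 35 of the cells labelled CD8-depleted (31.4%, 16.9 to 49.3%). Without thinning the shares were 21.4, 19.4, 35.5, 33.8 and 31.4%. The intervals of sham and TAC overlapped. In the B cells the thinned share was 2.09% of 383 cells, at a median of 47634 reads per cell before thinning. In the comparison monocytes it was 38.9, 45.0, 51.9, 71.4 and 73.3%, above the members in each group. Within the members it was 19.8% at *Ly6c2* under 100 CPM, 32.4% at 100 to 1000 CPM and 55.0% at 1000 CPM or more. Over the members with *Ly6c2* under 1000 CPM, the median of the list was 1.98 in WT and 1.04 in CD3e-/- mice.

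**Figure D4:**
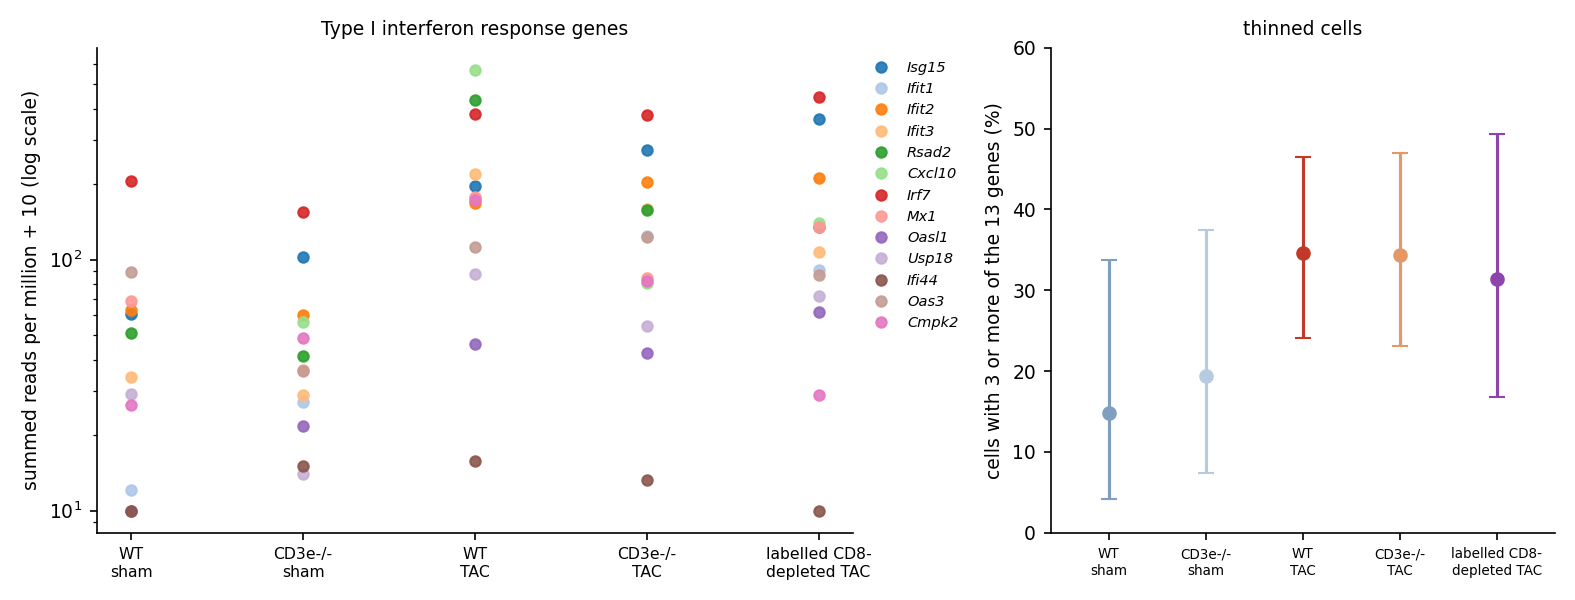
Left, summed CPM (log scale, 10 added) of the 13 type I interferon response genes in the Ly6c-low monocytes of each hashtag group, 1 point per gene; right, share of members thinned to 30000 reads with at least 50 CPM of 3 or more of these genes, with 95% exact intervals. The shares are 14.8 and 19.4% in the sham groups and 31.4 to 34.7% in the TAC groups, with intervals that overlap.

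The element of this response, TTTC, 2 bases of any kind and TTTC, was looked for in the same 250 bases, a search added after the values had been seen. It stood in the promoters of 6 of 11 genes of the list with a promoter in the table, *Cxcl10*, *Ifit1*, *Ifit3*, *Isg15*, *Oas3* and *Rsad2*, and in 2.98% of all 32851 promoters. None of the 12 marker and leading genes with a promoter held it. The promoters of the 3 genes of the list with the highest log2 ratios of WT TAC to WT sham are shown 5′ to 3′ on the strand of the gene, with the element in capitals. They lie at chr19:34640639-34640888 (*Ifit1*, plus strand, 104 to 95 and 85 to 76 bases before the start), chr12:26456453-26456702 (*Rsad2*, minus strand, 120 to 111 bases before it) and chr5:92348890-92349139 (*Cxcl10*, minus strand, 213 to 204 bases before it, on the other strand).
Ifit1: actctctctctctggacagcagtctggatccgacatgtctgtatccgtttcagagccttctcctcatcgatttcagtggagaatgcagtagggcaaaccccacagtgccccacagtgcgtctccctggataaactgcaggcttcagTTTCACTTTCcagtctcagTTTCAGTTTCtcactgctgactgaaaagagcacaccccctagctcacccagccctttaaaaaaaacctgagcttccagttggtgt
Rsad2: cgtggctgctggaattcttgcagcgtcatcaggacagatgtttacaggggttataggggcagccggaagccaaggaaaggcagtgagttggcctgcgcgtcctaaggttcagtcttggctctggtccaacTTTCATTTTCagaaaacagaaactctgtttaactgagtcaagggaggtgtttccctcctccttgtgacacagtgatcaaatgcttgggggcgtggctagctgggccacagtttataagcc
Cxcl10: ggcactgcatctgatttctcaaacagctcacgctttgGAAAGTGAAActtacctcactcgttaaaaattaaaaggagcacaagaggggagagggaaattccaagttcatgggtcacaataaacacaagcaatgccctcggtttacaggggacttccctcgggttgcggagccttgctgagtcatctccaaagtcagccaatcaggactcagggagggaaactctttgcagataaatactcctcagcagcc

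The interferon-gamma list differed between the genotypes in its counts. In WT mice 3 of 11 genes were higher after TAC by a log2 ratio of at least 1, against 5.51% of all genes. In CD3e-/- mice 6 of 10 were higher, against 5.14% of all genes. The medians were 0.16 and 1.14, beside 0.01 and 0.00 over all genes. The sham groups differed as well. *Irgm1*, a GTPase of the response to intracellular microbes, was at 119 CPM in WT sham, 21.6 CPM in CD3e-/- sham, 75.0 CPM in WT TAC and 89.4 CPM in CD3e-/- TAC. *Gbp2* was at 21.6, 45.5, 86.0 and 118 CPM. The difference of the differences was not tested.

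Of the receptors for IgG, *Fcgr1* and *Fcgr4* were higher after TAC in both genotypes by a log2 ratio of at least 1. *Fcgr1* was at 73.4 CPM in WT sham, 60.5 CPM in CD3e-/- sham, 265 CPM in WT TAC, 331 CPM in CD3e-/- TAC and 282 CPM in the cells labelled CD8-depleted. Cells ranged from 0 to 309.7, 290.5, 1353, 2002 and 1937 CPM, with medians of 0, 0, 156, 134 and 99.6 CPM. After thinning, a read was found in 44.4, 22.6, 62.7, 62.7 and 51.4% of the cells, and in 1.57% of the B cells. The comparison monocytes had 358, 257, 669, 749 and 823 CPM of *Fcgr1*, again higher in the TAC groups. How many of all genes have this order was not counted, and *Fcgr1* was named for its ratios of TAC to sham. *Fcgr4*, the receptor for IgG2 that non-classical monocytes are known for, was at 126, 137, 271, 302 and 229 CPM. The inhibitory receptor *Fcgr2b* was at 440.3, 359, 468, 558.5 and 448 CPM and *Fcgr3* at 497, 397, 617, 487.5 and 489 CPM, and neither passed a log2 ratio of 1. Over the whole list of Fc and scavenger receptors, 2 of 9 genes were higher in WT TAC and none lower (median 0.18). In CD3e-/- TAC 2 of 11 were higher and 1 lower (median 0.17). Over all genes, 5.51% were higher and 2.56% lower in WT mice, and 5.14% and 2.52% in CD3e-/- mice.

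*Nr4a1*, on which these monocytes depend, was lower after TAC. It was at 1916 CPM in WT sham, 1726 CPM in CD3e-/- sham, 786 CPM in WT TAC, 1128 CPM in CD3e-/- TAC and 1172 CPM in the cells labelled CD8-depleted. Cells of these groups ranged from 119 to 7350, 79.7 to 6416, 0 to 4692, 0 to 4380 and 0 to 3726 CPM, with medians of 1838, 1570, 621, 995 and 941 CPM. The sham groups lay above the TAC groups by their sums and medians, while the cells overlapped. The log2 ratio of TAC to sham was -1.27 in WT and -0.61 in CD3e-/- mice. The same order was found outside these cells. The comparison monocytes had 821, 719, 251, 273 and 330 CPM of *Nr4a1*, and the B cells 615, 673, 153, 357 and 360 CPM.

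*Klf4* was at 1961, 1689, 962, 955 and 1017 CPM in the members, at 621, 851, 391, 368 and 390 CPM in the monocytes and at 810, 692, 376, 445 and 433 CPM in the B cells. *Rel*, a subunit of NF-κB, was at 467, 509, 158, 147 and 192 CPM in the members, at 197, 309, 132, 80.4 and 70.7 CPM in the monocytes and at 390, 456, 229, 367 and 229 CPM in the B cells. Each of these genes was higher in both sham groups than in the 3 TAC groups, in all 3 kinds of cells. How many of all genes share this order was not counted, so it is not read as particular to these genes. *Rel*, *Nr4a2*, *Fosb*, *Plk2* and *Gipc1* were moreover named for their ratios of TAC to sham. *Nr4a2*, a relative of *Nr4a1*, was at 435, 181, 53.7, 55.4 and 94.0 CPM in the members, *Fosb*, an immediate early gene, at 666, 628, 277, 231.5 and 451 CPM, *Plk2*, a stress-induced kinase, at 152, 196, 60.0, 60.1 and 71.4 CPM, and *Gipc1* at 56.6, 60.3, 15.5, 17.1 and 34.3 CPM. Immediate early genes are induced by the digestion of tissue too, and the part of the preparation in these values was not tested. The list of immediate early and stress genes as a whole had medians of -0.22 and -0.35. In WT TAC 2 of its 12 genes were lower and none higher, against 2.56 and 5.51% of all genes. In CD3e-/- TAC 1 of 12 was lower and 1 higher, against 2.52 and 5.14% of all genes. *Fos* was at 4639, 3794, 3783, 3780 and 3918 CPM.

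**Figure D5:**
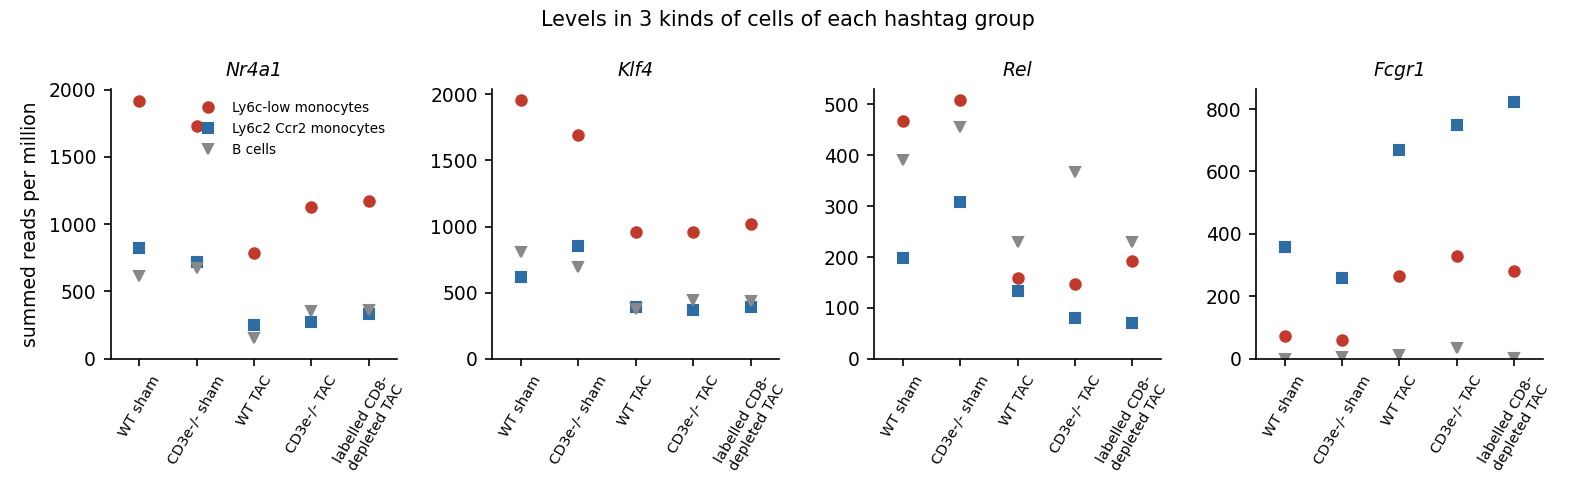
Summed CPM of *Nr4a1*, *Klf4*, *Rel* and *Fcgr1* in the Ly6c-low monocytes, the *Ly6c2* *Ccr2* monocytes and the B cells of each hashtag group, 1 point per kind of cell and group. *Nr4a1*, *Klf4* and *Rel* are higher in the sham groups in all 3 kinds of cells. *Fcgr1* is higher in the TAC groups in both kinds of monocytes, with 73.4 and 60.5 against 265 to 331 CPM in the Ly6c-low monocytes. The share of all genes with either order was not counted.

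Of 24 non-classical monocyte genes outside the rule, 3 were higher in WT TAC than in WT sham by a log2 ratio of at least 1, against 5.51% of all genes, and 1 was lower, against 2.56%, with a median of -0.13. The higher genes were *Fcgr4*, *Lair1*, an inhibitory collagen receptor, with 145 and 309 CPM, and *Eno3*, and the lower gene was *Nr4a1*. In CD3e-/- mice *Fcgr4* was higher and *Dusp5* lower, against 5.14 and 2.52% of all genes, with a median of -0.08. *Cx3cr1* was at 685, 605, 601, 585 and 647 CPM over the 5 groups, *Itgal* at 737, 627, 719, 530 and 607 CPM, *Gngt2* at 899, 864, 846, 815 and 838 CPM, and *Ear2* at 815, 605, 765, 554 and 697 CPM. *Spn* was at 306, 357, 248, 342 and 211 CPM. *Eno3* was at 124, 226, 260, 193 and 203 CPM, and *Dusp5*, a phosphatase of the ERK pathway, at 439, 595, 222, 259 and 203 CPM. The medians of the other lists in WT and CD3e-/- mice were 0.23 and -0.10 for glycolysis (9 genes, none past 1), -0.17 and -0.92 for inflammatory cytokines and feedback (10 genes, 0 and 4 lower), -0.08 and 0.56 for the classical monocyte genes (9 genes, 0 and 1 higher), and -0.58 and 0.45 for MHC class II (7 genes, 0 and 1 higher). The macrophage genes had a median of -0.14 in WT mice, with 1 of 6 higher and 1 lower, and of 0.94 in CD3e-/- mice, with 3 of 7 higher and none lower. These 3 were *C1qc*, *Mrc1* and the complement gene *C1qb*, which was at 41.7 CPM in CD3e-/- sham and 183 CPM in CD3e-/- TAC, from 2 of 31 and 10 of 68 cells. Their part in the other differences of CD3e-/- mice was not tested. The 4 lower genes of the inflammatory list were *Cxcl2*, a neutrophil chemokine, with 1859 CPM in CD3e-/- sham and 679 CPM in CD3e-/- TAC, *Il1b* with 1890 and 926 CPM, *Nfkbia* with 1230 and 553 CPM, and *Tnf* with 85.7 and 27.2 CPM. Without the cell with the most reads of each gene the median of this list was -0.30.

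Among the genes with the largest ratios of TAC to sham, several rested on 1 cell. *Retnla* was at 748.5 CPM in WT sham against 8.96 CPM in WT TAC, but 1 cell held 97.7% of its reads, and the log2 ratio of -5.32 was -0.64 without the top cells. *Mmp12* came from 1 cell in WT sham (67.4 CPM) with no read in WT TAC, and *Ccr7* and *Hbegf* each from 1 cell of CD3e-/- sham (58.0 and 58.7 CPM) with none in CD3e-/- TAC. *Ube3c*, a ubiquitin ligase, was at 117 CPM in 14 cells of WT sham and 12.9 CPM in WT TAC, with a log2 ratio of -2.46 and of -2.55 without the top cells. *Mrc1*, the mannose receptor of macrophages, was at 61.1 CPM in WT sham and 1.67 CPM in WT TAC, from 3 and 1 cells. *Sdc4*, a heparan sulfate proteoglycan, had no read in WT sham and 65.7 CPM from 4 cells in WT TAC. In CD3e-/- mice *Ccl12*, a ligand of Ccr2, had no read in sham and 154 CPM in TAC, from 8 of 68 cells. Against a floor of 3 reads over the sham group this is 202-fold, a ratio of summed reads and no lower bound over cells. *Slfn4* was at 5.34 and 212.1 CPM, *Ly6a* (Sca-1) at 24.4 and 456 CPM, the complement gene *C1qc* at 5.09 and 123 CPM, and *F11r*, a junction adhesion molecule, at 3.81 and 73.6 CPM in 1 and 35 cells. *Ccl5* was at 63.8 and 1.41 CPM, *Il1rn* at 135 and 19.6 CPM and *Plxna1* at 50.3 and 4.997 CPM, from 3, 4 and 3 cells of CD3e-/- sham.

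Between CD3e-/- sham and WT sham, 253 of 4049 genes were higher (6.25%) and 236 lower (5.83%) by a log2 ratio of at least 1, with 31 and 28 cells behind the sums. Between CD3e-/- TAC and WT TAC, with 68 and 76 cells, 31 of 3948 genes were higher (0.785%) and 36 lower (0.912%). The counts thus differed along with the number of cells, and its part in them was not tested. Of the non-classical monocyte genes outside the rule, none of 23 in sham and none of 24 in TAC passed a log2 ratio of 1 in either direction, with medians of -0.08 and -0.00. *Dda1* was at 3.295 CPM in 4 cells of WT sham and at 79.3 CPM in 16 cells of CD3e-/- sham, and *Cpeb2*, an RNA-binding protein, at 2.396 and 69.9 CPM. *Stab1*, a scavenger receptor, was at 0 and 61.3 CPM, from 4 cells. *Slpi*, a protease inhibitor, was at 86.0 CPM in WT sham and 1.78 CPM in CD3e-/- sham, *Nf1* at 60.5 and 2.54 CPM, *Brpf3* at 51.5 and 1.02 CPM, and *Pank2* at 71.6 and 5.09 CPM.

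After TAC, 4 of 11 type I interferon genes were lower in CD3e-/- than in WT members by at least 1, against 0.912% of all genes. None was higher, and the median was -0.50. *Cxcl10* had a log2 ratio of -2.83 and *Rsad2* of -1.45. Both were reversed, to 0.45 and 0.82, when at least 3 of the 4 genes of the rule were required, which also turned the median of the list to 0.47. The direction of both genes thus depended on how strictly the members were chosen. *Il1rn*, the antagonist of interleukin 1, was at 79.5 CPM in WT TAC and 19.6 CPM in CD3e-/- TAC, *Wdfy1* at 71.7 and 18.5 CPM, and the histone gene *H2aw* at 50.8 and 11.0 CPM. Higher in CD3e-/- TAC were *Ly6a*, with 50.3 against 456 CPM from 5 of 76 and 19 of 68 cells, *Mrc1*, with 1.67 against 94.9 CPM from 1 and 6 cells, *Ccl12*, with 27.8 against 154 CPM, and *Rgcc*, with 12.9 against 68.0 CPM. *Ly6a* was also higher in the comparison monocytes, with 584 against 1117 CPM. *Hmox1*, the heme oxygenase, was at 102 against 447 CPM, and 1 cell held 52.2% of the latter, yet a read was found in 24 of 76 and 37 of 68 cells, and the log2 ratio of 2.03 was 1.27 without the top cells.

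Between the cells labelled CD8-depleted and WT TAC, which also served as the control of the comparison above, 83 of 4029 genes were higher (2.06%) and 100 lower (2.48%). None of 24 non-classical monocyte genes passed a log2 ratio of 1, with a median of -0.12. The largest ratios on the higher side came from few cells. *Iigp1* was at 6.05 CPM in WT TAC and 87.6 CPM in the cells labelled CD8-depleted, from 3 cells each, *Cxcl9* at 3.34 and 69.2 CPM, from 1 and 2 cells, and *Timp1* at 6.77 and 71.9 CPM, from 2 cells each, of which 1 held 91.7% of the latter. Without members of 1000 CPM or more of *Ly6c2*, *Cxcl9* and *Iigp1* were reversed, to -0.49 and -0.17. *Hmox1* was at 441 CPM, of which 1 cell held 76.0%, and its log2 ratio of 2.01 was 0.32 without the top cells. *Edc4*, a factor of mRNA decapping, was at 7.61 and 57.6 CPM in 8 of 76 and 14 of 35 cells. On the lower side, *Cmpk2* was at 163 and 18.8 CPM, *Cxcl10* at 561 and 129.9 CPM, *Smurf2*, a ubiquitin ligase, at 91.9 and 16.4 CPM, *Ercc1*, a DNA repair endonuclease, at 50.02 and 2.379 CPM, and *Spp1*, the gene of osteopontin, at 59.6 and 8.09 CPM. Of 12 type I interferon genes, 4 were lower and none higher, with a median of -0.38 that ran from -2.02 to 1.06 over the alternative settings.

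Genes of antigen presentation had higher medians in both of these comparisons, with 0.84 in CD3e-/- TAC and 0.66 in the cells labelled CD8-depleted over the 7 MHC class II genes. *H2-Aa* was at 1671 CPM in WT sham, 1784 CPM in CD3e-/- sham, 1212 CPM in WT TAC, 2450 CPM in CD3e-/- TAC and 1916 CPM in the cells labelled CD8-depleted, with a read after thinning in 25.9, 54.8, 29.3, 56.7 and 51.4% of the members. T cells, which should lack it, had *H2-Aa* at 3018 CPM (WT sham), 5102 CPM (WT TAC) and 3412 CPM (labelled CD8-depleted), with a read in 25.5, 45.8 and 42.9% of them, at medians of 86912, 149370 and 110510 reads per cell. *Cd74*, the invariant chain, was at 5487, 5012, 3458, 6866 and 6235 CPM in the members, against 6887, 11160 and 7651 CPM in those T cells. In each of these 3 groups the summed level of both genes in the members lay below that in the T cells, while the share of cells with an *H2-Aa* read was above that of the T cells in WT sham and in the cells labelled CD8-depleted and below it in WT TAC. The values are therefore not read as expression by the members or as a difference between groups. The CD3e-/- groups held 6 and 4 T cells, too few for this background.

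Of the repair factors, *Areg*, *Igf1*, *Arg1*, *Csf1* and *Il10* had reads in at most 7 of the 238 members. *Areg*, the growth factor amphiregulin, had reads in 2 members, both of CD3e-/- sham (8.14 CPM), and none in the 76 members of WT TAC, the 68 of CD3e-/- TAC, the 35 of the cells labelled CD8-depleted and the 28 of WT sham. The comparison monocytes had 140, 44.2, 0, 6.84 and 18.0 CPM of *Areg*. *Igf1* had reads in 5 members (2.904 CPM over all), *Arg1* in 1, *Csf1* in 6 (4.20 CPM) and *Il10* in 7 (1.83 CPM). *Osm*, the cytokine oncostatin M, was at 280 CPM in WT sham, 305 CPM in CD3e-/- sham, 188 CPM in WT TAC, 232.2 CPM in CD3e-/- TAC and 239 CPM in the cells labelled CD8-depleted, with reads in 112 of the 238 members. The log2 ratios of TAC to sham were -0.55 in WT and -0.38 in CD3e-/- mice, and neither passed a size of 1. The monocytes had 365 CPM of *Osm* over all groups. *Tgfb1* was at 523, 590, 492, 570 and 415 CPM, *Msr1*, the scavenger receptor A, at 279, 248, 316, 281 and 337 CPM, and *Ptgs2*, the prostaglandin synthase COX-2, at 65.9, 52.6, 53.6, 76.8 and 93.7 CPM. Only 4 of the 12 repair factors reached 50 CPM in CD3e-/- TAC or WT TAC, and none of these passed a log2 ratio of 1. Of 5 in the comparison of the cells labelled CD8-depleted with WT TAC, *Pdgfb*, a platelet-derived growth factor chain, was higher, at 67.3 against 18.8 CPM from 10 of 35 and 18 of 76 cells, with a log2 ratio of 1.43 and of 1.37 without the top cells.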

How the data were processed

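Heart CD45+ cells of 5 hashtag groups were sequenced by TAS-Seq on a BD Rhapsody system in 1 pooled library. The table deposited by the authors holds counts that are not normalized, the reads of 27809 genes in 5363 cell columns. The counts carry the label DBEC, an error correction, so they may not be raw reads. Among members with a count, the lowest level was 84.25 CPM for *H2-Aa* and 86.08 CPM for *Ccr2*, but 4.257 CPM for *Ly6c2*. Whether low counts of some genes had been removed was not tested. Absent reads, floors and shares of cells with a read therefore refer to the deposited counts. Reads are not collapsed to molecules, so amplified fragments are counted more than once. Per the labels, the submitters' processing notes name cutadapt 2.10, Bowtie2 2.4.2 and GRCm38. The authors assigned hashtags, whose groups are given in the deposited notes, and marked doublets. The 40 doublet columns (0.746%) and 8 columns without a hashtag were not used. Cells with 500 or more genes and a share of counts from the 37 mitochondrial genes of at most 0.4 were kept.

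Levels are reads of a gene summed over the cells of a group, per 1000000 of their reads. Ratios are log2 with 10 CPM added to both, among genes of 50 CPM or more in at least 1 group. Exact Poisson intervals of the levels take each read as independent. They are too narrow, since reads are not collapsed to molecules and can come from few cells. A fold is understated at low levels by the added CPM. The sums give deeply sequenced cells more weight. With 1 sample a group there is no p-value. Cells thinned to 30000 reads (seed 1; 235 of 238 members, 3 shallower ones left out) were used for shares of cells with a read. Comparison monocytes had at least 500 CPM of *Ly6c2* and 200 CPM of *Ccr2* with *C1qa*, *Mki67*, *Cd79a* and *Flt3* low, macrophages at least 500 CPM of *C1qa*, and B cells at least 200 CPM of *Cd79a* with *Csf1r* low. Named genes were the markers, the 15 highest and 10 lowest against the comparison monocytes, the 5 highest and 5 lowest of each comparison and of TAC to sham in both genotypes, and members of the lists; predicted genes, *Xist*, Y-linked and mitochondrial genes were not named. The members and lists were chosen with earlier results of these data known. Scripts were tested on simulated data. Calculations ran in Python 3.11.15 (pandas 2.3.3, scipy 1.17.1, numpy 2.4.6), and figures were drawn with matplotlib 3.10.9. Values of some single genes are not reported here.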

Additional observations from a re-analysis of the deposited data

Results flagged for a closer look

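In 7 genes the members of TAC and sham hearts differed in opposite directions in the 2 genotypes, by a log2 ratio of at least 1 each way. The difference between the genotypes was not tested, since each group is 1 sample. *Ccl5* had 2.004 in WT and -2.69 in CD3e-/- mice, *Cpeb2* 1.04 and -1.39, *Il1rn* 1.07 and -2.29, and *Stab1* 2.102 and -1.16. *Mrc1* had -2.61 and 1.20, *Nf1* -1.58 and 1.18, and *Rgcc* -1.40 and 1.88. *Ccl5* rested on 0, 3, 2 and 1 cells of WT sham, CD3e-/- sham, WT TAC and CD3e-/- TAC, and *Mrc1* on 3, 3, 1 and 6 cells. *Stab1* had reads in 0, 4, 8 and 6 cells, with a ratio of -0.98 in CD3e-/- mice once the cell with the most reads was left out of each group. *Rgcc*, in 7, 6, 11 and 18 cells, had -1.27 and 1.94 without those cells, and *Nf1*, in 12, 4, 19 and 17 cells, -1.43 and 1.20.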

How the results depend on the processing

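Of the ratios of single genes between groups, 514 left the counting interval of their reads under another setting, 4 were reversed and 602 stayed within it. That Poisson interval is over reads and not over cells, so this tally does not measure how robust the ratios are. Of the counts of genes past a log2 ratio of 1, 51 moved by over 1.5 times and 59 did not. These counts are given as higher and lower counts for WT TAC to WT sham, CD3e-/- TAC to CD3e-/- sham, CD3e-/- sham to WT sham, CD3e-/- TAC to WT TAC, and the cells labelled CD8-depleted to WT TAC. With 50 CPM added they were 40 and 20, 43 and 21, 40 and 34, 5 and 5, and 12 and 8. With no minimum level they were 754 and 360, 650 and 331, 798 and 760, 124 and 128, and 307 and 400. With 1 CPM added, the lower counts of the first 3 comparisons were 172, 173 and 358, and the last 2 comparisons had 61 and 57, and 135 and 168. With at least 3 of the 4 genes required they were 384 and 281 in the first comparison, 174 lower in the second, then 422 and 471, 73 and 81, and 228 and 240. With thinned cells, the lower counts of the first 2 were 173 and 165, and the last 2 had 71 and 58, and 171 and 156. With the mean over cells there were 164 lower genes in the first, 61 higher in the fourth and 147 higher in the last. Without the cell with the most reads of each gene, the first 2 had 53 and 48 lower genes and the last 33 higher. Among members with *Ly6c2* under 1000 CPM, a setting chosen after seeing the data, 60 genes were lower in the fourth comparison, and 150 higher and 186 lower in the last.

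With at least 3 of the 4 genes, medians moved to 1.10 (type I interferon), -1.76 (MHC class II) and 0.98 (classical monocyte genes) for WT TAC to WT sham, and to -0.40 (classical) for CD3e-/- TAC to CD3e-/- sham. They moved to 0.74 (type I), -1.16 (MHC class II) and 0.61 (classical) for CD3e-/- sham to WT sham, to 0.47 (type I) and -1.05 (classical) for CD3e-/- TAC to WT TAC, and to 1.06 (type I) and 1.91 (MHC class II) for the cells labelled CD8-depleted. In that setting *Cxcl10* and *Rsad2* were reversed between CD3e-/- TAC and WT TAC, to 0.45 and 0.82. For CD3e-/- sham to WT sham, thinning gave -0.15 for the interferon-gamma list and 0.49 for MHC class II, and the mean over cells 0.55 for MHC class II. Without the top cells the inflammatory list had -0.30 for CD3e-/- TAC to CD3e-/- sham. For the cells labelled CD8-depleted, the type I median was -2.02 with *Ly6c2* under 1000 CPM, where *Cxcl9* and *Iigp1* were reversed to -0.49 and -0.17, and -1.06 without members that had 2 markers of another cell type, also chosen after seeing the data. The causes were not tested.

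The shares of members, in the order WT sham, CD3e-/- sham, WT TAC, CD3e-/- TAC and CD8-depleted, were 5.2, 7.07, 8.30, 13.3 and 8.17% with at least 1 of the 4 genes. With at least 3 they were 1.6, 2.85, 4.79 and 2.24% for WT sham, WT TAC, CD3e-/- TAC and CD8-depleted. Among *Csf1r* cells they were 4.39, 5.97 and 6.04% in the first 3 groups, and with *Ly6c2* under 1000 CPM 5.77% in CD3e-/- TAC. With limits of 50 and 500 CPM, the highest *Ly6c2* range held 25.0% of the members of WT TAC, 35.3% of CD3e-/- TAC and 27.7% of all. The 5 ratios of shares stayed within their counting intervals under all 11 alternatives each. No paired analysis was possible because each group is 1 sample. Leaving out a replicate was not possible either. The 28 to 76 cells of a group limit all levels, most of all those of genes found in few cells.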
